A study of Homo sapiens with 5 samples.

Results

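RNA from C4-2B cells kept with isoflavone for 72 h was set against RNA from control C4-2B cells across all genes, on 1 Affymetrix array each. These are 2 of the 5 arrays of the series. Each probe set, a group of short probes for a transcript, has a linear signal (an intensity). A floor of 97.1, the median signal over the 5 arrays, replaced every lower signal, and the log2 ratio of isoflavone 72 h over control was taken per gene. Of 19775 genes with a probe set, 12604 exceeded this floor in the control, after 72 h or in both, and these were counted as measured. C4-2B is a human prostate cancer line, a bone-metastatic derivative of LNCaP, and was grown in RPMI 1640 medium with fetal bovine serum. The treated cells had 25 µM isoflavone, a soy mixture whose dose is given as its genistein, and the control cells had 0.1% DMSO. The sources used here do not give how long the control cells were kept with DMSO, so isoflavone and time in culture cannot be told apart. The remaining 3 arrays, isoflavone for 6 h and B-DIM (a formulated diindolylmethane) for 6 h and 48 h, each at 25 µM, are measured against this same control array and appear only as signals side by side. Each condition has 1 array, so no difference has a replicate check, no test was possible and every value describes these arrays only, and "higher" and "lower" stand for at least 2-fold.

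Genistein, the main soy isoflavone, binds estrogen receptors and inhibits several kinases. In luminal prostate cells the androgen receptor drives secreted proteases of the kallikrein family, among them the one measured in blood as prostate specific antigen (PSA). Cells short of amino acids or burdened with unfolded protein slow their protein synthesis and at the same time translate more of the transcription factor ATF4, which switches on amino acid synthesis, amino acid import and further stress factors.

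Both arrays had been scaled alike, with trimmed mean signals of 498.3 (control) and 498.1 (isoflavone 72 h), and 49.5% and 49.7% of their probe sets lay above the floor. Of luminal prostate markers, 9 of 9 with a probe set were measured, of which 2, KLK2 and KLK3, were lower after 72 h and 0 higher, with a median log2 ratio of -0.30. The lower share was 22.2%, beside 2.07% of all measured genes. KRT18, a luminal keratin among them, read 2738.5 in the control and 2679.9 after 72 h. Others among them were dimmer, as FOLH1 (373 and 617) and TMPRSS2 (339 and 238). Fewer markers of other cells were measured: 5 of 19 with a probe set for fibroblasts and osteoblasts, 3 of 15 for macrophages and osteoclasts, 1 of 14 for lymphocytes and endothelium and 2 of 8 for basal prostate cells, and none of these was 2-fold changed. Isoflavone 6 h and B-DIM 48 h stand apart from the other 3 arrays. CDH1, the epithelial adhesion protein E-cadherin, had a signal of 2195 in the control, 3736 on isoflavone 72 h and 2114 on B-DIM 6 h, but 85.9 on isoflavone 6 h and 99.5 on B-DIM 48 h, both near the floor. These signals go against the label C4-2B. Values from these 2 arrays are given below with that difference, whose part in them was not tested. VIM, the mesenchymal filament protein vimentin, was bright on every array, with 22024 in the control and 40167 on isoflavone 72 h. The identity of the cells on the control and isoflavone 72 h arrays was not tested either. Of 10 housekeeping genes, 0 were 2-fold changed, and their median log2 ratio was 0.03, or -0.11 with quantile normalization.

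After 72 h 605 genes were at least 2-fold higher (4.80% of those measured) and 261 lower (2.07%), with a median log2 ratio of 0.05 over all measured genes. These shares are the ones to set beside the list counts below. By the probe sets in use, the excess of higher genes grew with the fold. At 3-fold there were 119 higher and 20 lower genes, at 4-fold 46 and 3, and at 8-fold 6 and 0. Of the higher genes, 99 had a control signal at the floor, which makes their ratio a bound, and of the lower genes 29 were at the floor after 72 h. Where a called gene had a second measured probe set, that probe set pointed the same way for 233 of 287 higher genes (81.2%) and for 109 lower genes (82.0%), but passed 2-fold for 81 (28.2%) and 32 (24.1%). Over all genes with a second probe set, 3.79% of these passed 2-fold higher and 4.49% lower, so the excess of higher genes was not seen there. For most genes the probe set in use is the one with the highest mean signal over the 5 arrays, isoflavone 72 h included. This choice can favour probe sets that are high after 72 h, and its part in the excess was not tested.

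**Figure D1:**
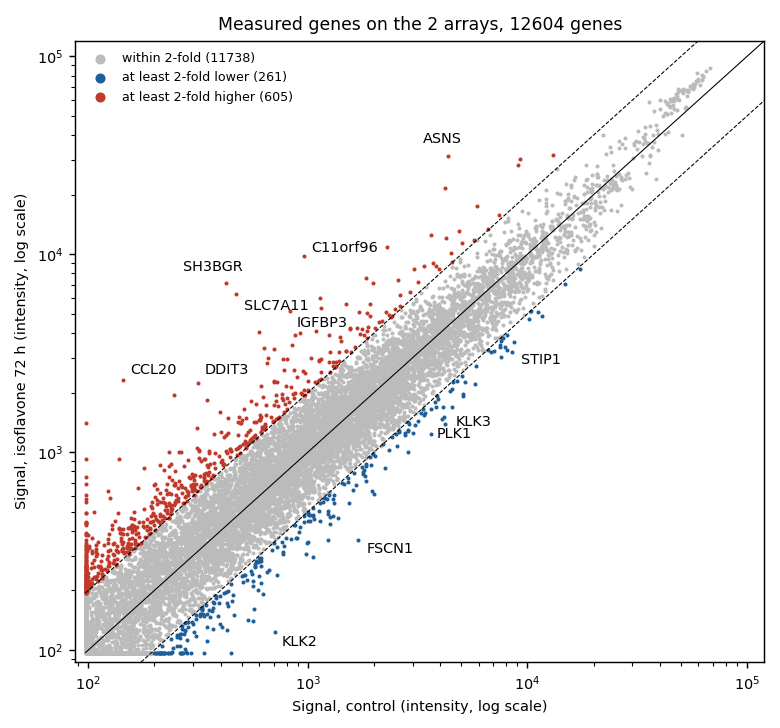
Signal of each of 12604 measured genes in the control (horizontal axis) and after 72 h of isoflavone (vertical axis), both as intensity on a log scale, with signals under the floor drawn at 97.1; the solid line marks equal signals, the dashed lines 2-fold, and each point is 1 gene on 1 array per condition. The 605 higher genes reach farther from the line than the 261 lower ones, with SH3BGR and CCL20 farthest above the line and KLK2 farthest below it.

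The genes farthest from the control were of mixed kind. SH3BGR, named for a protein that binds SH3 domains, had the largest log2 ratio with the floor in place, 4.08, with a signal of 424 in the control and 7143 after 72 h, against 805 on isoflavone 6 h, 844 on B-DIM 6 h and 4559.9 on B-DIM 48 h. CCL20, a chemokine that draws lymphocytes and dendritic cells, read 144 in the control and 2319 after 72 h (log2 ratio 4.01). On the other arrays CCL20 was 55.4 (isoflavone 6 h), 216 (B-DIM 6 h) and 6.5 (B-DIM 48 h), so isoflavone 72 h was the single array with a strong signal. DHRS2, a short-chain dehydrogenase, went from 92.6, under the floor, to 1410.4, which is at least 14.5-fold higher, and stayed between 102 and 156 on the 3 other treated arrays. C11orf96, a gene of unclear role, read 956 and 9849 (log2 ratio 3.36), though its second probe set had 0.64. LCN2, the iron-binding lipocalin of epithelia under stress, read 245 and 1937, or 2.98 on the log2 scale. Its signals on isoflavone 6 h and B-DIM 48 h, 71.7 and 4.9, were under the floor. Other large differences came from genes under the floor in the control: the secreted pentraxin PTX3 (94.7 to 921, at least 9.49-fold), the deiodinase DIO3, which inactivates thyroid hormone (56.4 to 691, at least 7.11-fold), and TCIM (16.5 to 750.4, at least 7.73-fold). GPNMB, a membrane glycoprotein first named in melanoma cells, read 138.5 and 920.4 (log2 ratio 2.73).

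Among lower genes outside the lists, FSCN1, the actin-bundling protein fascin, read 1692 in the control and 358 after 72 h (log2 ratio -2.24), and its second probe set had -1.23. CCDC106 read 447 and 94.9, at least 4.60-fold lower. PRMT7, an arginine methyltransferase, read 1053 and 294 (-1.84), and DPP4, a cell-surface peptidase, 592 and 201 (-1.56). NRP1, a coreceptor for semaphorins and VEGF, read 626 and 192 (-1.70), but its other measured probe set had -0.19. For MATR3, a nuclear matrix protein, the probe set in use read 562 and 140.5 (-2.00). One list, MAP kinase phosphatases and feedback genes, had 3 of 17 measured genes higher (17.6%) and 2 lower (11.8%), with a median of 0.09. In that list DUSP4, a phosphatase that switches off ERK and JNK kinases, read 1999 in the control and 614 after 72 h (log2 ratio -1.70), with -1.66 and -1.21 by its other probe sets. DUSP4 read 2029 on isoflavone 6 h, 1445 on B-DIM 6 h and 968 on B-DIM 48 h. DUSP1, DUSP10 and DUSP16, phosphatases of the same family, went the other way (1.08, 1.15 and 1.28), but with all probe sets averaged each was under 2-fold.

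ATF4 targets were the list with the highest median. Of 36 genes of the ATF4 and amino acid response, all measured, 25 were at least 2-fold higher (69.4%) and 0 lower, beside 4.80% and 2.07% of all measured genes. The median log2 ratio was 1.47 beside 0.05, and 34 of the 36 lay above the control. The count was 15 once _s_at and _x_at probe sets, a suffix for those that can match several transcripts, were left out. Some higher genes, such as DDIT4, SLC3A2 and PSAT1, have only such probe sets and had no value there. The count was between 20 and 27 under every other alternative at 2-fold, and the median stayed between 1.22 and 1.54. Among the transcription factors, ATF4 itself read 13046 in the control and 31622 after 72 h (log2 ratio 1.28), 10251 on isoflavone 6 h, 29417 on B-DIM 6 h and 33336 on B-DIM 48 h. DDIT3, the pro-death factor CHOP, read 315 and 2231, or 2.82 on the log2 scale. ATF3, a repressor of the same stress, read 1134 and 6023 (2.41), although 1 of its other probe sets had -0.15. The partner factors CEBPB (1083 to 4087, log2 ratio 1.92), CEBPG (1493 to 5604, 1.91, or 1.02 by another probe set) and JDP2 (107 to 497, 2.22), which pair with ATF4 or AP-1 proteins, were higher too, and each of these factors was also at least 2-fold above the control on both B-DIM arrays.

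The amino acid enzymes and transporters of the list were not alike. ASNS, which makes asparagine, read 4353 in the control and 31413 after 72 h (log2 ratio 2.85), and it was high on every treated array, at 19146 on isoflavone 6 h, 14932 on B-DIM 6 h and 28562 on B-DIM 48 h. Of the serine pathway, PSAT1 (5877 to 17522, log2 ratio 1.58) and PSPH (433 to 1482, 1.77, or 0.36 by another probe set) were higher, while PHGDH, the first enzyme, had 4758 and 7914 (0.73). CTH, which makes cysteine, read 615 and 2155 (1.81). The proline enzymes differed from these: PYCR1 had 1750.4 and 1791 (0.03) and ALDH18A1 5783 and 3739 (-0.63). SLC7A11, the cystine importer, had the largest log2 ratio of the list on this scale, 3.74, with 473 in the control and 6297 after 72 h, and its other probe sets gave 3.81 and 1.29. On isoflavone 6 h SLC7A11 was 235, below the control, and on the B-DIM arrays 3446 and 2813. The neutral and cationic amino acid carriers SLC1A4 (286 to 910.4, 1.67), SLC7A3 (495.5 to 1398, a 2.82-fold difference) and SLC7A1 (5038 to 11446, 1.18) and the shared heavy chain SLC3A2 (729 to 1708.5, 1.23) were higher. The 4 further probe sets of SLC7A1 lay between -1.01 and 1.22, and those of SLC1A4 between 0.09 and 2.17. SLC1A5, the glutamine carrier, read 2779 and 2508 (-0.15).

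Genes that act downstream of ATF4 were also among the higher ones. DDIT4, an inhibitor of the growth kinase complex mTORC1, read 629.7 and 3347 (log2 ratio 2.41), and SESN2, which restrains mTORC1 when leucine is short, 582 and 1758 (1.59). EIF4EBP1, the translation repressor that mTORC1 inactivates, read 3366 and 8749.7 (1.38). CHAC1, which degrades glutathione, was under the floor in the control (68.5) and read 491 after 72 h, at least 5.05-fold higher. TRIB3, a pseudokinase that feeds back on ATF4, read 793 and 2167 (1.45, or 0.21 by another probe set). STC2, a secreted glycoprotein, read 348 and 1828 (2.39), though its second probe set had 0.51, and the angiogenic factor VEGFA 874 and 3905 (2.16, and from 0.91 to 1.49 by its other probe sets). Of 17 measured aminoacyl-tRNA synthetases, which charge tRNAs and of which several are known ATF4 targets, 1 was higher and 1 lower (5.88% each), with a median of 0.45. The higher share lay near that of all genes. CARS1, for cysteine, read 4507 and 10094 (1.16), GARS1, for glycine, 5883 and 11752 (0.998, just short of 2-fold), and RARS1, for arginine, 11221 and 5121 (-1.13).

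The promoters of 3 of the higher genes are shown because each holds TGATGNAA, letters that match the C/EBP-ATF response element. That element is the composite site at which ATF4 and C/EBP proteins pair. The sequences are from RefSeq on GRCh38.p14, each read 5′ to 3′ on the gene's strand: ASNS at chr7:97872433-97872512 (minus strand), ATF3 at chr1:212565180-212565259 (plus strand) and CHAC1 at chr15:40953226-40953305 (plus strand). Capitals mark TGATGNAA, which starts 68 bases before the start site in ASNS, 191 before it in ATF3 and 209 before it, on the reverse strand, in CHAC1.
ASNS: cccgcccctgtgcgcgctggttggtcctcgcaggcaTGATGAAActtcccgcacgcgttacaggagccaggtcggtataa
ATF3: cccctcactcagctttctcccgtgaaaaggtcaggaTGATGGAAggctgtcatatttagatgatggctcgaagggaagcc
CHAC1: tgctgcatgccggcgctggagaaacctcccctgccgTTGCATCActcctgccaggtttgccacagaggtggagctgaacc

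TGATGNAA was searched on both strands in the window from 250 bases before to 50 bases after each start site. It was found for 5 of the 20 higher genes of the list that have a promoter in the RefSeq table (25.0%) and for 0 of 8 within 2-fold, beside 1003 of all 27305 promoters (3.67%). SLC3A2 and SLC7A1 are the remaining 2 of the 5. The motif was chosen after the values were seen, a match is no measured binding, and sites farther from the start were not searched.

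The endoplasmic reticulum (ER) genes were split. Of 29 measured genes of the unfolded protein response and ER folding, 6 were higher (20.7%) and 0 lower, with a median log2 ratio of 0.49, or 0.27 and 2 higher genes with all probe sets averaged. XBP1, the factor that the stress sensor IRE1 activates by splicing, read 704 in the control and 3313 after 72 h (log2 ratio 2.24, or 0.62 by its second probe set), 756 on isoflavone 6 h, 1888 on B-DIM 6 h and 2608 on B-DIM 48 h. DNAJB9, an ER cochaperone, read 702 and 2252 (1.68), HERPUD1, which helps remove misfolded protein, 1122 and 2904 (1.37), and CREB3L2, a transcription factor held in the ER, 1036 and 2985 (1.53, but 0.69 and -0.14 by its other probe sets). The sensor ATF6 (1001 to 2277, 1.19) and SEL1L of the degradation complex (1337.5 to 2726, 1.03, with no other probe set above 0.20) complete the 6. HSPA5, the abundant ER chaperone BiP, had 8138 and 15213 (0.90), and members at the low end were SDF2L1 (-0.64) and DERL3 (-0.99).

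Immediate early factors and chemokines held further high genes. Of 16 measured AP-1 and early growth response factors, 6 were higher (37.5%) and 0 lower, with a median log2 ratio of 0.69. EGR1, a zinc finger factor induced by growth signals, read 396 in the control, 1597 after 72 h (2.01) and 1189.7 on isoflavone 6 h, with 0.03 and 1.21 by its other probe sets. JUND read 3037.5 and 8389 (1.47) and JUN 2575 and 7379.5 (1.52), with JUN at 0.91 once _s_at and _x_at probe sets were left out. KLF10 (974.6 to 2513, 1.37) and FOSL2 (101 to 206, 1.03, but 0.09 and 0.08 by its other probe sets) passed 2-fold as well, as did ATF3, while FOS was under the floor on both arrays and MYC had 6395 and 5732 (-0.16). Of 20 measured NF-kB targets and chemokines, 5 were higher (25.0%) and 0 lower, with a median of 0.54. Beside CCL20 these were CXCL8, the neutrophil chemokine interleukin 8 (50.3 to 563, at least 5.80-fold, or 0.91 on the log2 scale by its second probe set), CCL2 (99.4 to 233, 1.23), CXCL2 (77.4 to 212, at least 2.18-fold) and the feedback inhibitor TNFAIP3 (198.5 to 427, 1.11). CXCL8 was near or under the floor on the other treated arrays, between 32.2 and 100.5. The NF-kB subunit NFKB1 read 936 and 1323 (0.50) and the inhibitor NFKBIA 1967 and 3749.9 (0.93). When the floor was raised to the 75th percentile, 471.7, CCL20 alone of the 5 stayed past 2-fold. For the others the signal after 72 h was too near that floor, or under it, to reach 2-fold. CCL8, a chemokine outside that list, read 83.6 and 578, at least 5.95-fold higher.

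The kallikreins KLK2 and KLK3 were the lowest of the measured androgen-induced genes. KLK2, kallikrein 2, read 707 in the control and 124 after 72 h, the lowest log2 ratio of all measured genes with signals under the floor set to it (-2.51), and -2.10 by its other measured probe set. KLK3, which encodes PSA, read 4219 and 1389 (-1.60), with -1.72 and -0.19 by its other probe sets, and KLK4 253 and 116.5 (-1.12, but -0.35 and 0.61 by its other probe sets). On B-DIM 6 h KLK2 and KLK3 were near the control at 525 and 3560.0, while isoflavone 6 h and B-DIM 48 h, the arrays that stand apart, had 11.4 and 7.2 for KLK2 and 134 and 11.8 for KLK3. Of 26 measured androgen-induced genes, kallikreins included, 5 were lower (19.2%) and 1 higher (3.85%), with a median of -0.35. With the floor at the 75th percentile, 471.7, 1 of them, KLK3, was lower. The control signals of the other lower genes were too near that floor, or under it, to allow a 2-fold fall. The cold-sensing channel TRPM8 read 369.9 and 127 (-1.54) and C1orf116 262 and 85.4, at least 2.70-fold lower. STEAP2, a metalloreductase of the prostate, was the higher one, at 2505 and 5316 (1.09). Androgen-induced genes near the control were FKBP5, a chaperone of steroid receptors (2979 and 3125, 0.07), and TMPRSS2, a serine protease (339 and 238, -0.51).

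**Figure D2:**
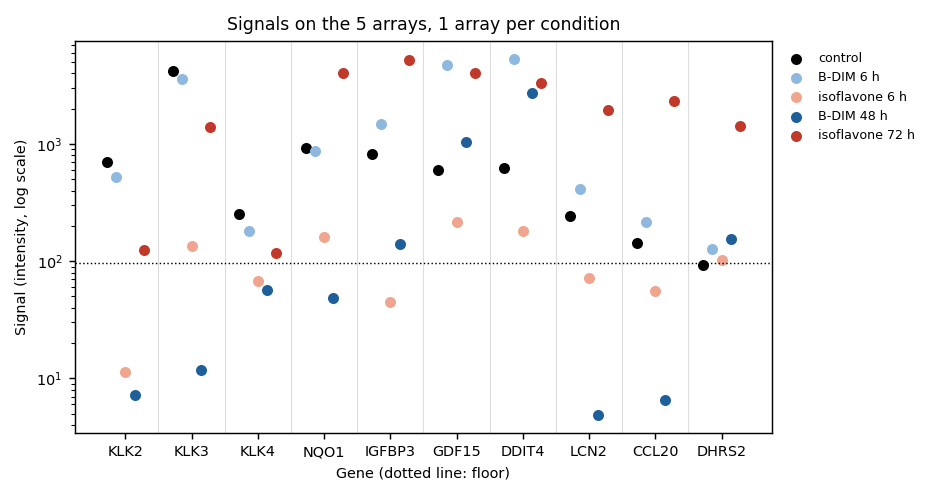
Signals (intensity, log scale) of 10 genes on each of the 5 arrays, 1 point per array, with the floor of 97.1 as a dotted line. KLK2 and KLK3 were lower on isoflavone 72 h than in the control, KLK2 lay under the floor on isoflavone 6 h and B-DIM 48 h, and KLK3 was far lower there than on isoflavone 72 h, while IGFBP3, CCL20, LCN2 and DHRS2 had their highest signal on isoflavone 72 h.

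Enzymes that inactivate or remodel androgens stood on the other side. Of 10 measured genes of androgen synthesis and inactivation, 6 were higher (60.0%) and 1 lower (10.0%), with a median log2 ratio of 1.06. AKR1C1 and AKR1C2, ketosteroid reductases with nearly the same sequence, read 652 and 2819 (2.11) and 512 and 1646 (1.68), and since _x_at probe sets can share transcripts they may not be separate measurements. Without _s_at and _x_at probe sets AKR1C1 had 0.09. AKR1C3, which reduces androstenedione to testosterone, read 482 and 1049.5 (1.12). HSD17B6, an oxidoreductase of androgen metabolites, had 169 and 389, a 2.30-fold difference, SRD5A1, a steroid 5α-reductase, 302.5 and 608 (1.01), and UGT2B15, which glucuronidates androgens, 66.3 and 257, at least 2.65-fold, with the same caution about near-identical family members. STS, steroid sulfatase, was the lower one, at 200.3 and 75.8, at least 2.06-fold. With the floor as a pseudocount or with all probe sets averaged 3 of the 6 stayed past 2-fold. Of 18 measured estrogen-responsive genes 5 were higher (27.8%) and 0 lower (median 0.30), namely STC2, XBP1, SERPINA3 (37.2 to 233.5, at least 2.41-fold), AGR2 (154.5 to 324, 1.07) and the receptor corepressor NRIP1 (1148 to 2347, 1.03, or 0.55 by its second probe set). Classical members such as PGR, the progesterone receptor (472.5 and 609, 0.37), and GREB1 (102 and 77.2, at the floor after 72 h) stayed within 2-fold, and the receptor gene ESR1 was under the floor on both arrays.

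Of 27 measured NRF2 antioxidant targets 4 were higher (14.8%) and 0 lower, with a median of 0.16, so the list as a whole lay near the median of all genes. NQO1, a quinone reductase, read 919.6 in the control and 3999.8 after 72 h (log2 ratio 2.12), with 1.63 and 1.48 by its other probe sets, and HMOX1, heme oxygenase, 229 and 618 (1.43). SLC7A11 and AKR1C1 are the other two. The glutathione synthesis genes GCLC (1609.9 and 1639.5, 0.03) and GCLM (1244 and 1315, 0.08), standard NRF2 targets, were close to the control, and TXNRD1, thioredoxin reductase, had 5344 and 8877 (0.73). Of 13 measured genes of metallothioneins and zinc handling 4 were higher (30.8%) and 0 lower, with 5 below the control and a median of 0.16. The higher count ran from 0 to 5 under the alternatives. Those higher were metallothioneins, which bind zinc and copper: MT2A (2638 to 6261, 1.25), MT1X (1382 to 3213, 1.22), MT1F (311 to 1044, or 1.75 on the log2 scale and 0.56 by its second probe set) and MT1H (273 to 849, 1.63). All of these are _x_at probe sets of a family with near-identical members, so which member gave the signal is uncertain, and B-DIM 48 h had less than the control for each (734, 301, 22.5 and 97.9). Of the targets of the aryl hydrocarbon receptor NQO1 was the single higher one of 10 measured (10.0%). CYP1A1, its classic target, read 88.9 and 134, and TIPARP 1188 and 1192.

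Genes of cell division were shifted down. Of 40 measured mitosis genes, 6 were lower and 0 higher, with 34 below the control and a median log2 ratio of -0.36. PLK1, the mitotic kinase, read 4174 in the control, 1509.5 after 72 h (-1.47), 2715 on isoflavone 6 h, 2926 on B-DIM 6 h and 1918 on B-DIM 48 h, so isoflavone 72 h was the lowest array. MKI67, the proliferation antigen Ki-67, read 5072 and 1973 (-1.36), with 4542, 4499.8 and 5181 on the other treated arrays. CDC20, which activates the anaphase complex, read 7466 and 3461 (-1.11), KIF20A, a kinesin of cytokinesis, 3379.7 and 1545 (-1.13), and CCNB1, cyclin B1, 7868 and 3403 (-1.21, or -0.05 by its second probe set). AURKA read 7498 and 3411 (-1.14), but without _s_at and _x_at probe sets its ratio was 0.17. The main mitotic kinase CDK1 itself had 15846 and 18586 (0.23). Without _s_at and _x_at probe sets 2 of the 6, PLK1 and KIF20A, stayed lower, while MKI67 and CDC20 had no probe set left. With all probe sets averaged 4 genes of the list were lower.

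Of 43 measured genes of DNA replication and nucleotide supply, 4 were lower (9.3%) and 0 higher, with a median of -0.21. Subunits of the replicative helicase were among them, MCM2 (8048 to 3283, -1.29), MCM5 (3813 to 1686, -1.18, and -1.25 by another probe set) and MCM4 (2844 to 1293, -1.14), together with RRM2 of ribonucleotide reductase (10417 to 5189, -1.01, or -0.17 by its second probe set). PCNA, the replication clamp, had 11332 and 10480.2 (-0.11) and TOP2A 6749 and 7202 (0.09). CCND1, cyclin D1, read 346 and 111 (-1.64), but its brighter probe set had -0.53, and CDKN1B, the inhibitor p27, 1379 and 2046 (0.57).

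The promoters of 3 lower mitosis genes are shown because they hold TTTGAA, letters that match the cell cycle homology region (CHR). Through that short element the DREAM and B-MYB complexes control mitosis genes. The sequences are from the same RefSeq table and build, 5′ to 3′ on the gene's strand: CDC20 at chr1:43358879-43358958 (plus strand), MKI67 at chr10:128126424-128126503 (minus strand) and PLK1 at chr16:23678809-23678888 (plus strand). Capitals mark TTTGAA.
CDC20: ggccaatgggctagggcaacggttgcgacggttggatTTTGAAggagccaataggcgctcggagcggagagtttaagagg
MKI67: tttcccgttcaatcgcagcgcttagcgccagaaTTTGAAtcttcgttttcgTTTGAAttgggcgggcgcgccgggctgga
PLK1: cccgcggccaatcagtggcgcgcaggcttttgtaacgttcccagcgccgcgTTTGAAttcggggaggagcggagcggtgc

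TTTGAA or TTCGAA, searched on both strands, stood in 3 of the 5 lower mitosis genes with a promoter in the table and in 21 of 29 within 2-fold (72.4%), beside 4539 of all promoters (16.6%). CCAAT, the box bound by NF-Y, stood in 5 of 5 and in 22 of 29 (75.9%), beside 35.7% of all promoters. Both elements were frequent in the list as a whole, members within 2-fold included. The E2F letters TTCCCGC or TTGGCGC, of which the second can overlap a reversed CCAAT, stood in 0 of 2 lower replication genes with a promoter and in 23 of 35 within 2-fold (65.7%), beside 9.33% of all promoters.

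Ribosome production and ribosomal proteins did not go together. Of 28 measured genes of ribosome biogenesis, which act in the nucleolus on ribosomal RNA, 7 were lower (25.0%) and 0 higher, with 25 below the control and a median log2 ratio of -0.61, the lowest of the 55 lists first drawn up. POLR1A, the large subunit of RNA polymerase I, read 427 and 174 (-1.30, with -1.14 and -0.06 by its other probe sets), NOP16 2999.5 and 1249 (-1.26, but 0.63 by 1 other probe set), RRP9, a protein of the U3 particle, 367 and 158 (-1.21), and BYSL, bystin, 1797 and 814 (-1.14). UTP20 (723 to 330.0, -1.13), MRTO4 (2527 to 1234, -1.03, or -0.45 by its second probe set) and IMP3 (3892 to 1914, -1.02) complete the 7. The abundant nucleolar proteins NCL, nucleolin (11587 and 13722, 0.24), and NPM1, nucleophosmin (46408 and 54328, 0.23), were near the control. Cytosolic ribosomal proteins had 0 of 40 past 2-fold, and 39 of 40 above the control with a median of 0.34, but quantile normalization took that median to -0.00. These are among the brightest probe sets, as RPL3 with 48559 and 68397. For ribosome biogenesis the median stayed between -0.62 and -0.52 under all alternatives, with 2 lower genes when the floor was a pseudocount.

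**Figure D3:**
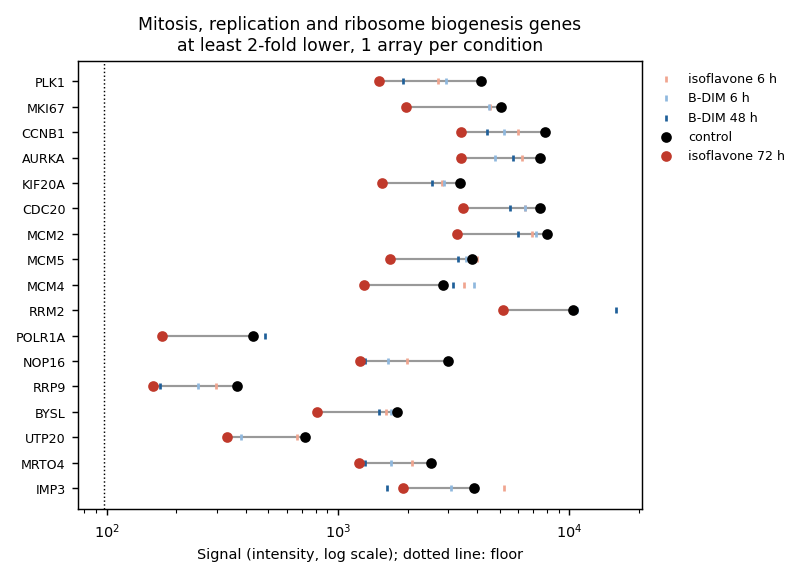
Signals (intensity, log scale) of the 17 genes of mitosis, DNA replication and ribosome biogenesis that were at least 2-fold lower after 72 h of isoflavone; large points are the control (black) and isoflavone 72 h (red), small ticks the other 3 arrays, and the dotted line the floor, with 1 array per condition. The red point is the lowest of the 5 arrays for every gene drawn but IMP3, for which B-DIM 48 h is lower, and B-DIM 48 h is close to it for UTP20, NOP16, MRTO4 and RRP9.

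Of 22 measured heat shock proteins and cochaperones, 2 were lower and 0 higher, 9.09% lower beside 2.07% of all measured genes. The median was -0.47, or -0.17 without _s_at and _x_at probe sets. STIP1, which links HSP70 and HSP90, read 8467 and 3214 (-1.40), with -1.51 by its second probe set, and DNAJB1, an HSP70 cochaperone, 3331 and 1654 (-1.01, or -0.58 by its second). HSP90AA1, the inducible HSP90, had 39141 and 40467 (0.05) and its constitutive twin HSP90AB1 21525 and 13617 (-0.66). Of 31 measured proteasome subunits 2 were lower (6.45%), with a median of -0.29: PSME3, an activator cap, at 5767 and 2217 (-1.38) and PSMB10, an immunoproteasome subunit, at 699.5 and 347 (-1.01). Oxidative phosphorylation had 1 of 38 lower (2.63%, near the share of all genes, with a median of -0.27), ATP5MC1, the membrane ring of ATP synthase, at 7574 and 3035 (-1.32).

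Growth factor and stress outputs outside these groups were led by secreted proteins. IGFBP3, which binds insulin-like growth factors and restrains growth, read 825 in the control and 5164 after 72 h (log2 ratio 2.65), with 1.66 by its second probe set. The other arrays gave 45.0 on isoflavone 6 h, 1478 on B-DIM 6 h and 140.4 on B-DIM 48 h, so the time points of isoflavone lay on opposite sides of the control. IRS1, an adaptor of the insulin and IGF receptors, read 158 and 426 (1.43, or 0.48 by its other measured probe set). Of 29 measured p53 target genes 5 were higher (17.2%) and 0 lower, with a median of 0.24: GDF15, a stress cytokine (596 to 4051, 2.76), SAT1, which breaks down polyamines (1845 to 7607, 2.04), GADD45A, a growth arrest gene (1704 to 5134, 1.59), TP53INP1 (887 to 2386, 1.43, or 0.04 by another probe set) and SESN2. CDKN1A, the p53-induced inhibitor p21, had 1139 and 1753 (0.62) and MDM2 -0.25. GDF15 has 2 further probe sets, both under the floor on the control and 72 h arrays, and averaging all of them gave 0.92.

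Further lists held single genes past 2-fold rather than a shift of the whole list. Of 34 measured autophagy genes 4 were higher (11.8%) and 0 lower, with a median log2 ratio of -0.01. Among them SQSTM1, the cargo receptor p62, read 1927 in the control and 5591.5 after 72 h (1.54, with 0.68, 0.90 and 0.00 by its other probe sets), and WIPI1, a protein of the forming autophagosome, 266 and 666 (1.32). Of 26 measured sterol genes 3 were higher (11.5%) and 1 lower (3.85%), with a median of 0.13. Higher were the cholesterol exporter ABCG1 (128 to 411, 1.68, and from 0.83 to 0.94 by its other probe sets), the regulator SREBF1 (211 to 558, 1.40, or 0.74 by its second probe set) and INSIG1 (731 to 1483, 1.02, with 0.53 and 1.31 by its others). EBP, a sterol isomerase, was lower (4521 to 1696, -1.41, with -0.97 and -0.61 by its other measured probe sets). Of 33 measured genes of glycolysis and the hypoxia response 2 were higher (6.06%, near the share of all genes) and 3 lower (9.09%), with a median of -0.14. PKM, pyruvate kinase, read 11659.9 and 4866 (-1.26, or -0.46 by another probe set), PGAM1, phosphoglycerate mutase, 17280.2 and 8450.0 (-1.03) and PFKFB4 276 and 125 (-1.14).

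Genes of secretory granules and neuroendocrine cells had 13 of 22 with a probe set measured, of which 4 were higher (30.8%) and 0 lower, with a median of 0.77. INSM1, a neuroendocrine transcription factor, read 218 in the control, 588 after 72 h (log2 ratio 1.43), 93.0 on isoflavone 6 h, 301 on B-DIM 6 h and 823 on B-DIM 48 h. NCAM1, a neural adhesion molecule, read 716 and 1465 (1.03, and from 0.26 to 1.08 by its other probe sets), SYT11 223 and 507 (1.18, with 0.48 and 0.17 by its others) and SNAP25 50.2 and 199, at least 2.05-fold. With all probe sets averaged 0 of these genes passed 2-fold. Of 29 measured epithelial junction genes and keratins ESRP1, an epithelial splicing regulator, was the single higher one (375 to 886, 1.24), a share of 3.45%. Of 17 measured mesenchymal genes ACTA2, a smooth muscle actin, was the single higher one (355 to 1015, 1.52), a share of 5.88%. Both shares lay near that of all genes. The mesenchymal list had 13 genes above the control and a median of 0.27. In it VIM read 22024 and 40167 (0.87, or -0.05 by its second probe set), short of 2-fold.

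In the RANKL pathway, whose ligand and receptor drive bone-resorbing cells, 2 of 34 measured genes were higher and 1 lower (median 0.15), shares of 5.88% and 2.94% that lie near those of all measured genes. Beside JUN, the adaptor GAB2 read 223 and 464.5 (1.06), and the p38 activator MAP2K6 1299.7 and 578.5 (-1.17, and -1.07 by its second probe set). LIFR, the receptor of leukemia inhibitory factor, read 479.5 in the control, 1412.5 after 72 h (1.56) and between 1372 and 2062 on the other treated arrays. Its probe sets disagreed, at 1.27, -0.30 and -0.43 for the others. Lists with 0 genes past 2-fold were the Notch pathway (26 measured, median 0.05), receptor tyrosine kinases (28, 0.09), histone deacetylases, DNA methyltransferases and Polycomb genes (34, 0.05) and DNA damage repair (31, 0.12).

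**Figure D4:**
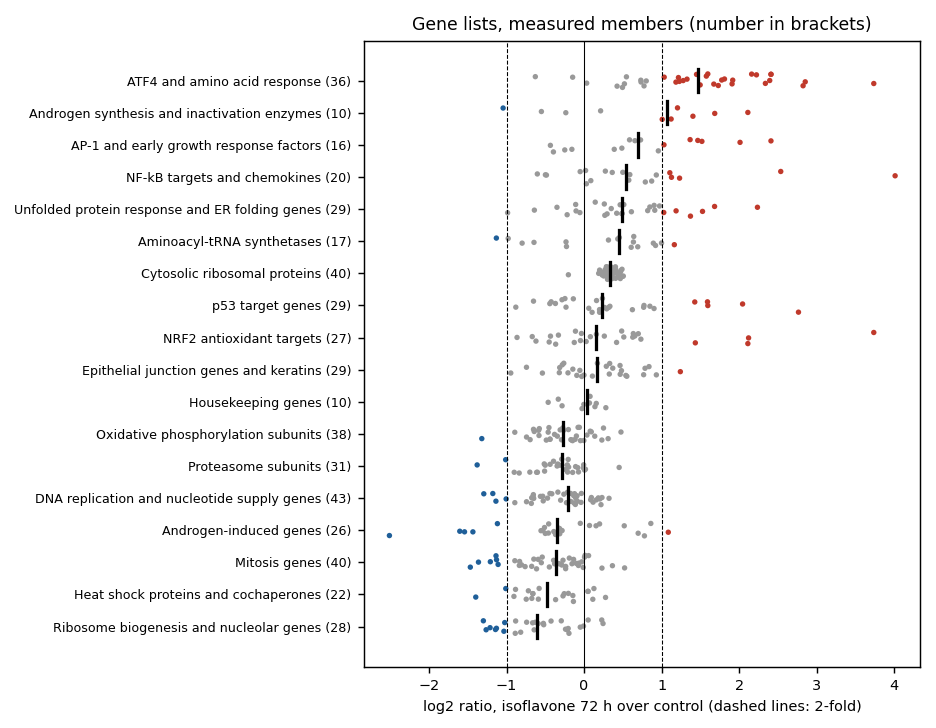
Log2 ratio of isoflavone 72 h over control (horizontal axis) for each measured member of 18 gene lists, with 1 point per gene, the number of measured members in brackets, a black bar at each median and dashed lines at 2-fold. ATF4 and amino acid response has the highest median (1.47) and ribosome biogenesis the lowest (-0.61), while ribosomal proteins lie in a narrow band between -0.20 and 0.51.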

How the data were processed

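The intensity values were deposited by the authors as one linear signal per probe set and array. The submitters' processing notes name MAS5, and the study's methods name Microarray Suite, MicroDB and the Data Mining Tool; the scaling target and detection calls are not given in the sources used here. Of 54613 probe sets, 41091 have 1 gene symbol in the platform annotation, 1801 have several and 11721 are not in that table; these last kinds were left out. A gene was represented by the probe set the study tabulated (8 probe sets, KLK3 having more than 1 of them) or else by the one with the highest mean signal over the 5 arrays. Further probe sets of a gene are given for some genes only, so where none is given they need not agree. Signals under the median of all signals, 97.1, were set to it before the log2 ratio was taken, and a gene counted as called at 2-fold. With 1 array per condition there was no test, SD or p-value, and the number of arrays limits the precision. Groups came from the sample labels, and no array was left out.

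The comparison and the 55 gene lists were chosen with earlier results of these data known, and 4 more lists (small nucleolar RNA host genes, kallikreins, dual specificity phosphatases and HOX genes) and the motif TGATGNAA after the values were seen. Genes named by rule were those of the study's table, the 20 largest rises and 20 largest falls at 2-fold or more whose brighter array reached 4 times the floor, and, in each list, the 4 measured members farthest from 0 in log2 ratio. AKR1C3, ALDH18A1, ATF4, ATF6, CDC20, CDH1, CDK1, CDKN1A, CEBPB, CEBPG, CHAC1, CTH, CYP1A1, DERL3, EPB41L4A-AS1, ESR1, FKBP5, FOS, FOSL2, GAS5, GCLC, GCLM, GREB1, HOXB6, HOXB8, HOXC9, HSP90AA1, HSP90AB1, HSPA5, IMP3, JDP2, KIF20A, KLF10, KLK4, KRT18, MDM2, MRTO4, MTHFD2, MYC, NCL, NFKB1, NPM1, NRIP1, PCNA, PGAM1, PGR, PHGDH, PSAT1, PSPH, PYCR1, SDF2L1, SEL1L, SLC1A4, SLC1A5, SLC3A2, SLC7A1, SLC7A3, SNHG32, SNHG33, SNHG4, SRD5A1, STEAP2, STS, TIPARP, TMPRSS2, TNFAIP3, TOP2A, TP53INP1, TRIB3, TXNRD1, UTP20 and ZFAS1 were named after their values were seen.

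Alternatives were quantile normalization, median ratio scaling, the floor moved to the 75th percentile, added as a pseudocount or left out, the average of all probe sets of a gene, the brightest probe set for every gene, no _s_at or _x_at probe sets, and 1.5-fold or 3-fold calls. Calculations ran in Python 3.11.15 with pandas 2.3.3, numpy 2.4.6 and scipy 1.17.1 and were checked on simulated data. Promoter sequences were matched by symbol.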

Additional observations from a re-analysis of the deposited data

Results flagged for a closer look

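For 12 of the 230 genes named by rule the isoflavone arrays lay on opposite sides of the control. They were at least 2-fold lower at 6 h and at least 2-fold higher at 72 h. The count covers those named genes only, and no share over all measured genes was taken. Genes outside them met the same rule, such as TRIB3 (793 in the control, 305 at 6 h, 2167 at 72 h) and STEAP2 (2505, 887 and 5316). The difference was not tested, since each time has 1 array. Isoflavone 6 h is 1 of the 2 arrays whose epithelial signals go against the label C4-2B, with CDH1 at 85.9 beside 2195 in the control, so that time and a difference between the cells on these arrays cannot be told apart. In log2 ratios of 72 h over 6 h, 6 of the 12 genes were above the floor on both arrays. These were SLC7A11, the cystine importer, at 4.75, NQO1 and HMOX1, enzymes against oxidative stress, at 4.64 and 2.47, the stress cytokine GDF15 at 4.22, the mTORC1 inhibitor DDIT4 at 4.20 and the histone gene H2BC21 at 2.19. The other 6 were under the floor at 6 h, so their values are lower bounds with no order among them. The bounds were at least 5.73 for IGFBP3, 4.32 for LCN2, 4.23 for STC2, 3.19 for the splicing regulator ESRP1, 2.60 for the neuroendocrine factor INSM1 and 2.06 for the interferon-induced PARP9. PARP9 had -0.58 at 72 h over control by its second probe set, so its direction depends on the probe set.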

How the results depend on the processing

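The 605 higher and 261 lower genes (69.9% of calls higher) became 567 and 275 with quantile normalization and 583 and 265 with median ratio scaling, and 488 and 187 without _s_at and _x_at probe sets. Counts moved by over 1.5 times with no floor (2814 and 2394, 54.0% higher), with the floor moved to the 75th percentile (216 and 120), with the floor as a pseudocount (360 and 159) and with all probe sets averaged (312 and 146), and by definition at 1.5-fold (1889 and 1227) and 3-fold (119 and 20, 85.6% higher). No scaling moved the median of all genes by over 0.1. Of 135 genes named by rule and past 2-fold, 44 stayed past it under every alternative that gave a value. For 3 the sign turned: SCD had -0.20 with all probe sets averaged, and AURKA had 0.17 and PARP9 -0.58 without _s_at and _x_at probe sets. The cause was not tested. Genes near the floor have bounds only, and signals under it have no order. No paired analysis was possible because each condition has 1 array.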

Other observations

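Host genes of small nucleolar RNAs, non-coding transcripts whose introns hold the guides for ribosomal RNA modification, were seen among the brighter genes after 72 h, and the list was made after that. Of 14, 8 were measured, and 4 were at least 2-fold higher and 0 lower, with a median log2 ratio of 0.63, or 0.02 without _s_at and _x_at probe sets. SNHG32 read 4196 in the control, 21546 after 72 h (2.36), 7551 on isoflavone 6 h, 6829 on B-DIM 6 h and 13234 on B-DIM 48 h. ZFAS1 read 9238 and 30217 (1.71), with 1.58, 1.74 and 0.68 by its other probe sets. EPB41L4A-AS1 read 3634 and 12499 (1.78, or 0.08 by its second probe set) and SNHG33 926 and 1989.5 (1.10). GAS5, a host gene known to build up when growth stops, had 0.02, and SNHG4 -0.66.

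Of 28 HOX genes, which set position along the body axis, 24 were measured and 3 were at least 2-fold lower (12.5%) and 0 higher, with a median of -0.37. HOXB8 read 273 and 120.0 (-1.18), HOXB6 603 and 283 (-1.09, or -0.34 by its second probe set) and HOXC9 503 and 238 (-1.08). Of 16 measured histone genes 2 were higher (12.5%), H2AC6 (303 and 719.5, 1.25) and H2BC21 (409 and 863, 1.08). ACADVL, an enzyme of fatty acid oxidation, read 1924 and 4898.5 (1.35), and it was the single higher gene of 19 in its list (5.26%, near the share of all genes).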
